A study of Mus musculus with 6 samples.

Results

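The IKK kinases, TRAF adaptors and feedback inhibitors that control NF-kB were examined as 10 genes: Chuk, Ikbkb, Ikbkg, Ikbke, Map3k14, Traf1, Traf2, Traf3, Birc3 and Tnfaip3. They were chosen by gene symbol, and all 10 were found among the 30037 named genes of the deposited expression table. The values are from poly(A) RNA of L-GMP cells, a progenitor-like leukaemia fraction sorted from the marrow of mice aged 8 to 10 weeks with AML (acute myeloid leukaemia). One group of 3 libraries came from WT (wild-type) leukaemia and the other group of 3 from Prmt6-/- leukaemia, which lacks the arginine methyltransferase Prmt6. Both groups were leukaemic, so no healthy progenitors enter the comparison, and no source used here names the oncogene that drove the leukaemia. Whether libraries of 1 genotype derive from separate mice is not stated by the labels, so the p-values cover the spread among these 6 libraries, which could be technical.

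NF-kB transcription factors are held in the cytoplasm by IkB proteins until a kinase complex, IKK, marks IkB for destruction. Receptors of the TNF, interleukin-1 and Toll families reach IKK through TRAF adaptors and ubiquitin chains. A second, slower branch runs through the kinase NIK, the product of Map3k14, which TRAF2, TRAF3 and the cIAP ubiquitin ligases keep at a low level in resting cells. NF-kB in turn induces some of its own regulators, among them A20 (Tnfaip3), cIAP2 (Birc3) and Traf1, and in myeloid leukaemia the pathway is known for its support of cell survival.

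The targeted gene stood lower in every knockout library. Prmt6 had deposited log2 values of 7.82, 7.60 and 7.41 in the WT libraries and 5.42, 5.46 and 5.48 in the knockout, a difference of -2.16 beside a log2 fold change of -7.66 in the authors' deposited table. An antisense gene, C130013H08Rik, shares 23.4% of the exon bases of Prmt6, and no label or header says whether the counting used strand, so its reads may not be told apart from those of Prmt6. The L-GMP surface markers Kit, Cd34 and Fcgr3 were present in both genotypes, at 9.66 to 10.30, 10.36 to 10.56 and 13.18 to 13.39, and none of these 3 passed the test in limma, while Kit was lower in the authors' deposited table (log2 fold change -0.35, adjusted p = 0.0481). Of the 10 L-GMP and myeloid progenitor markers 2 fell and 2 rose in limma, Fcgr2b (difference -0.88) and Cd47 (-0.31) against Meis1 (0.49) and Myb (0.38). Over all genes tested the shares were 18.0% lower and 15.0% higher. Mpo, the granule enzyme myeloperoxidase, differed by -1.11 without passing (limma adjusted p = 0.139). The summed linear level of these markers overlapped, at 77674 to 120568 in the WT libraries and 44616 to 91525 in the knockout. The part of these shifts in the differences of the members was not tested. Across tested genes, libraries of the same genotype correlated at 0.99873 to 0.99922 (Pearson) and those of different genotypes at 0.99333 to 0.99607. The values are not counts, which leaves the read depth unknown. Nothing in the file says that the values are divided by transcript length, so levels of single genes are compared only between samples. Sums over marker lists add different genes, so they follow the genes with the highest deposited values.

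Of the 10 member genes, 3 fell in the knockout (Ikbke, Traf1 and Birc3), 2 rose (Traf2 and Ikbkg) and 5 did not pass (Chuk, Ikbkb, Map3k14, Traf3 and Tnfaip3). The test was limma, two-sided, with Benjamini-Hochberg adjustment over 15454 genes and a threshold of 0.05. Of all genes tested 33.0% passed, 18.0% as lower and 15.0% as higher, so that passing was common in this comparison. The median difference over the members was -0.10 on the log2 scale beside 0.01 over all genes tested, and the median size regardless of sign was 0.19 beside 0.11. The genes behind these backgrounds were not matched to the members by level. All 10 members passed the filter on low values, which asked for 3 or more libraries at 1 or above. Each difference is the knockout mean less the wild-type mean in deposited log2 units, a scale that shrinks differences of genes at low level. The RNA is from bulk samples, in which fewer cells of a type and less RNA per cell cannot be told apart.

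**Figure D1:**
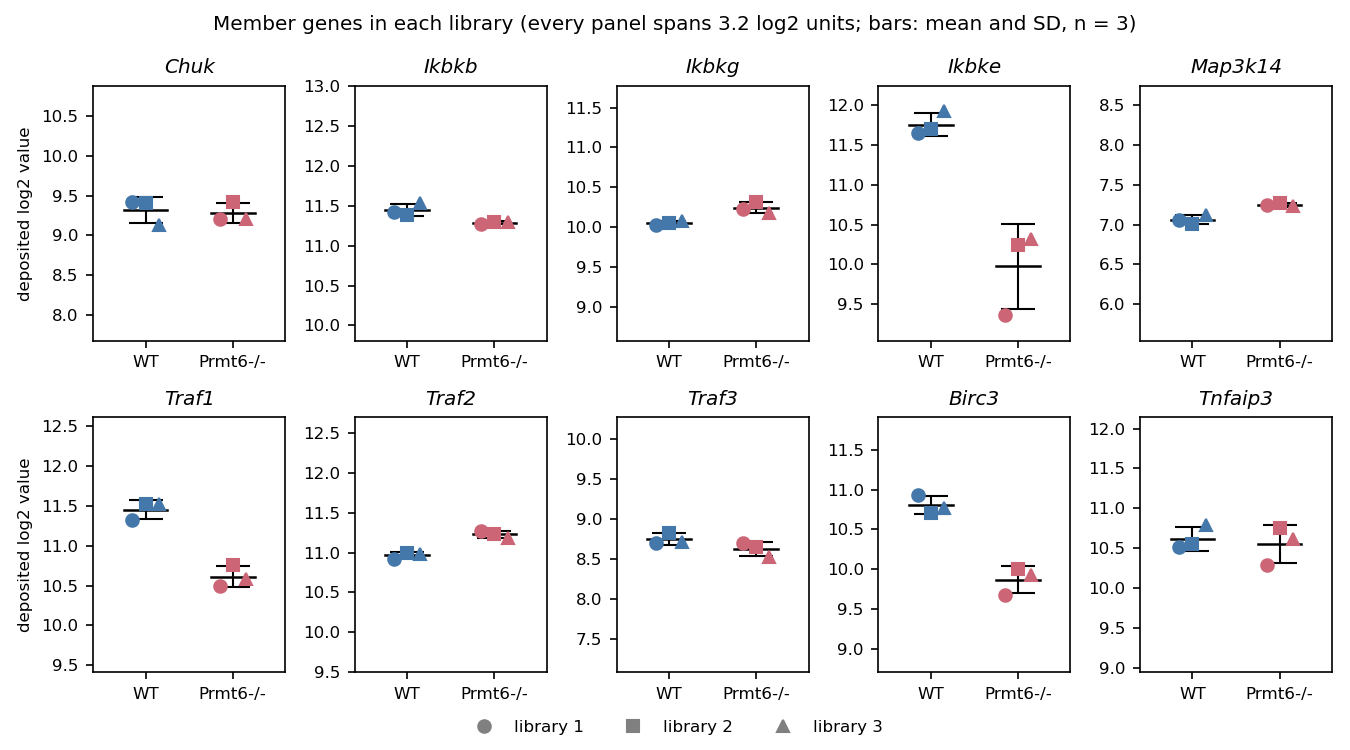
Deposited log2 value (y axis) of each member gene in the 3 WT and 3 Prmt6-/- libraries (x axis), with the library number as the symbol and bars for the mean and SD; every panel spans the same number of log2 units. Ikbke, Traf1 and Birc3 show separate groups with the knockout lower, and knockout library 1 is the lowest point of all 3.

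Ikbke encodes IKK-epsilon, a kinase related to the core IKK enzymes that works with TBK1 in the interferon response and is itself induced by inflammatory signals. Its values were 11.65, 11.70 and 11.92 in the WT libraries and 9.36, 10.25 and 10.32 in the knockout. All knockout values lay below all wild-type values, and knockout library 1 lay apart from the other knockout libraries, with a difference of -0.92 from their mean. The knockout mean of 9.97 ± 0.53 (SD, n = 3) compared with 11.76 ± 0.15 in the wild type, which gave a difference of -1.78 (SE 0.219, 95% interval -2.28 to -1.29, limma adjusted p = 3.66e-04), or 3.44-fold lower on the deposited scale. By size this difference ranked 55 among the 15454 genes tested. Without knockout library 1 the difference was -1.48 and still passed (limma adjusted p = 6.25e-05).

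Traf1, an adaptor that pairs with TRAF2 at TNF-family receptors and is a well-known NF-kB target, fell as well. Its values were 11.32, 11.52 and 11.52 in the WT libraries and 10.50, 10.76 and 10.58 in the knockout. The groups were separate by more than their own ranges, with a wild-type mean of 11.45 ± 0.12 (SD, n = 3), a knockout mean of 10.61 ± 0.14 and a difference of -0.84 (SE 0.0835, 95% interval -1.03 to -0.65, limma adjusted p = 1.20e-04), 1.79-fold lower.

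Birc3 encodes cIAP2, a ubiquitin ligase that TRAF2 recruits to receptors and that also takes part in the turnover of NIK. Its values were 10.93, 10.71 and 10.77 in the WT libraries and 9.68, 10.00 and 9.93 in the knockout, again with no overlap. The knockout mean was 9.87 ± 0.17 and the wild-type mean 10.80 ± 0.11 (SD, n = 3 each), for a difference of -0.93 (SE 0.0919, 95% interval -1.14 to -0.73, limma adjusted p = 1.17e-04), 1.91-fold lower. Its close relative Birc2, which encodes cIAP1, stood at 9.60, 9.58 and 9.61 in the WT libraries and 9.57, 9.65 and 9.52 in the knockout. The Birc2 difference of -0.02 had a 95% interval of -0.15 to 0.12 and did not pass (limma adjusted p = 0.858).

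The promoters of the 3 genes that fell are shown because these genes moved together and NF-kB is known to act on some of them. The sequences are from RefSeq on GRCm38.p6, run from 250 bases before to 50 after the annotated start, and lie on the minus strand at chr1:131279514-131279813 (Ikbke), chr2:34961723-34962022 (Traf1) and chr9:7873121-7873420 (Birc3). Capitals would mark a match to the NF-kB consensus, a motif of 10 letters searched on both strands, and these windows hold none.
Ikbke: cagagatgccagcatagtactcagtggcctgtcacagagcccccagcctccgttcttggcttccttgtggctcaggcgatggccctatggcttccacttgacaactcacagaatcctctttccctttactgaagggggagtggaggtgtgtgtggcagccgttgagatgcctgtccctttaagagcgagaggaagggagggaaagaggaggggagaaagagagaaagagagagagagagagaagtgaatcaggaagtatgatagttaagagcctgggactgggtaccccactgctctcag
Traf1: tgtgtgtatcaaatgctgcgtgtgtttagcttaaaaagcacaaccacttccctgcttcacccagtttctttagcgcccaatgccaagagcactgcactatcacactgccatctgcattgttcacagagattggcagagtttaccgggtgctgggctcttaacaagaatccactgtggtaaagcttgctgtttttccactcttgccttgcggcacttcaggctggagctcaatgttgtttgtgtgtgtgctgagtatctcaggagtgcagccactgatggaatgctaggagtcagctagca
Birc3: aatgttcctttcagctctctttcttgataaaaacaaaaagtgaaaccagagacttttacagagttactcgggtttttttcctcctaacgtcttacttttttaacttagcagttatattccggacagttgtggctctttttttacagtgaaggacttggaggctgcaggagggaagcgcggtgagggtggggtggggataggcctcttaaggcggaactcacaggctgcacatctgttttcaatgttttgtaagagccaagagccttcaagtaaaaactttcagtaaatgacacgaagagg
Of 32851 promoters in the RefSeq table, 4.51% hold a match to this motif. The absence of a match says only that these letters are not in these windows, and sites farther away were not searched.

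Traf2 and Ikbkg were the members that rose, both by little. TRAF2 is the adaptor that brings cIAPs to TNF receptors. Its gene stood at 10.92, 10.99 and 10.98 in the WT libraries and at 11.27, 11.23 and 11.18 in the knockout. All knockout values were the higher ones, with 10.96 ± 0.04 (mean, SD, n = 3) in the wild type, 11.23 ± 0.04 in the knockout and a difference of 0.26 (SE 0.0508, 95% interval 0.15 to 0.38, limma adjusted p = 0.00399). Traf1 and Traf2, whose products bind each other, thus passed in opposite directions, and both lie on chromosome 2.

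Ikbkg encodes NEMO, the regulatory subunit that joins the catalytic IKK subunits and binds ubiquitin chains. Its values were 10.02, 10.05 and 10.07 in the WT libraries and 10.23, 10.32 and 10.18 in the knockout, a separation smaller than that of Traf2. The difference was 0.20 (SE 0.0572, 95% interval 0.07 to 0.33, limma adjusted p = 0.0258). The call was lost when wild-type library 1 (limma adjusted p = 0.0719) or 2 (0.0695), or knockout library 1 (0.0559) or 2 (0.103), was left out. Of the exon bases of Ikbkg, 5.15% (418 bases) are shared with exons of G6pdx on the opposite strand. The sources used here do not say whether counting used strand, so reads of the 2 genes may not be told apart there, and G6pdx itself differed by -0.39.

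Neither catalytic subunit of the core complex passed the test. Chuk, which encodes IKK-alpha, the kinase of the slower NF-kB branch, had values of 9.42, 9.41 and 9.13 in the WT libraries and 9.21, 9.42 and 9.21 in the knockout. The groups overlapped, and their means differed by -0.04 (95% interval -0.25 to 0.17, limma adjusted p = 0.779). Its sign turned after quantile normalization (0.00986) and when wild-type library 1 (0.00941) or 2 (0.00503) was left out.

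Ikbkb encodes IKK-beta, the main IkB kinase of the fast branch, and stood at 11.42, 11.39 and 11.54 in the WT libraries and 11.27, 11.30 and 11.30 in the knockout. The knockout values were all lower, yet the difference of -0.16 (SE 0.0544, 95% interval -0.28 to -0.03) missed the threshold (limma adjusted p = 0.0528). In the authors' deposited table Ikbkb is listed at -0.18 (log2 fold change) and passes, with an adjusted p of 0.0426.

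Map3k14, the gene of NIK, had values of 7.06, 7.01 and 7.12 in the WT libraries and 7.24, 7.27 and 7.23 in the knockout. All knockout values were higher, and the difference of 0.18 (SE 0.0623, 95% interval 0.04 to 0.32) missed the threshold too (limma adjusted p = 0.0518). Map3k14 passed in 4 of 15 alternatives, among them quantile normalization (adjusted p = 0.0454) and median centring (0.0463). In the authors' deposited table its log2 fold change is 0.37 (adjusted p = 0.148).

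Traf3, the adaptor that links NIK to its degradation, stood at 8.70, 8.83 and 8.71 in the WT libraries and 8.70, 8.65 and 8.52 in the knockout. The groups overlapped, with a difference of -0.12 that did not pass (95% interval -0.29 to 0.04, limma adjusted p = 0.227). The transcripts of the 4 genes whose products control NIK turnover, Traf2, Traf3, Birc2 and Birc3, therefore held 1 that rose, 1 that fell and 2 that did not pass.

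Tnfaip3 encodes A20, the ubiquitin-editing enzyme that ends NF-kB signalling and one of the best-known NF-kB targets. Its values were 10.51, 10.55 and 10.79 in the WT libraries and 10.29, 10.75 and 10.61 in the knockout. The groups overlapped widely, and the difference was -0.07 (SE 0.118, 95% interval -0.34 to 0.20, limma adjusted p = 0.698). That interval lies outside the size seen for Traf1, at -0.84, and Birc3, at -0.93. The sign turned after quantile normalization (0.00693) and without knockout library 1 (0.0627) or wild-type library 3 (0.0175).

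The promoters of Tnfaip3 and Traf3 are shown because they hold NF-kB consensus matches while their transcripts did not pass. They lie at chr10:19015361-19015660 on the minus strand and at chr12:111166120-111166419 on the plus strand (RefSeq, GRCm38.p6), with matches on either strand in capitals.
Tnfaip3: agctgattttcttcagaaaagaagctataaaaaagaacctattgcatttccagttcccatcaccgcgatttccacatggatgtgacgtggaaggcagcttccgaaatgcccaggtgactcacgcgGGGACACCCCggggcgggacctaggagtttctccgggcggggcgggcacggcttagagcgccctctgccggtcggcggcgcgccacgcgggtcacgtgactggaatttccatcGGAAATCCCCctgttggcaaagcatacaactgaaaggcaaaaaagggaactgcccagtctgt
Traf3: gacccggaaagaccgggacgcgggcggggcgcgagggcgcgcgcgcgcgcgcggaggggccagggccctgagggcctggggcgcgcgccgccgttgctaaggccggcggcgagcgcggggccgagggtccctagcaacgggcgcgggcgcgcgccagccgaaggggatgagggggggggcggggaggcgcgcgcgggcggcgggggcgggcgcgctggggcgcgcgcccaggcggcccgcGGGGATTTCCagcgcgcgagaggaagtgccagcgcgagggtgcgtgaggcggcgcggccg
The Tnfaip3 matches begin at positions -125 and -12 from the annotated start, and the Traf3 match at -10. RefSeq promoters were matched for 9 of the 10 members (all but Ikbkb) with 13 windows in all, of which these 2 windows held a match, beside 4.51% of all promoters. The windows printed were picked by match and call, so the contrast between them is no test. A match is a description of sequence and not evidence of binding in these cells.

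In 7 of the 10 members the 2 groups did not overlap, beside 47.4% of all genes tested. For each of these 7 the exact two-sided permutation test over libraries gave p = 0.1, the smallest that 3 against 3 allow. Knockout library 1 was the lowest knockout library for 6 of the 10 members, beside 35.6% of all genes tested. It lay furthest below the mean of the other knockout libraries for Ikbke (-0.92), then Tnfaip3 (-0.39), Birc3 (-0.29) and Traf1 (-0.17).

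The authors' deposited table, whose test the file does not name, holds 6 of the members past an adjusted p of 0.05, beside 31.0% of the genes tested here. These were the 5 named above and Ikbkb. Its log2 fold changes were -1.96 for Ikbke, -1.09 for Birc3, -0.96 for Traf1, 0.30 for Traf2 and 0.24 for Ikbkg, each of the same sign as the difference on the deposited sample values.

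**Figure D2:**
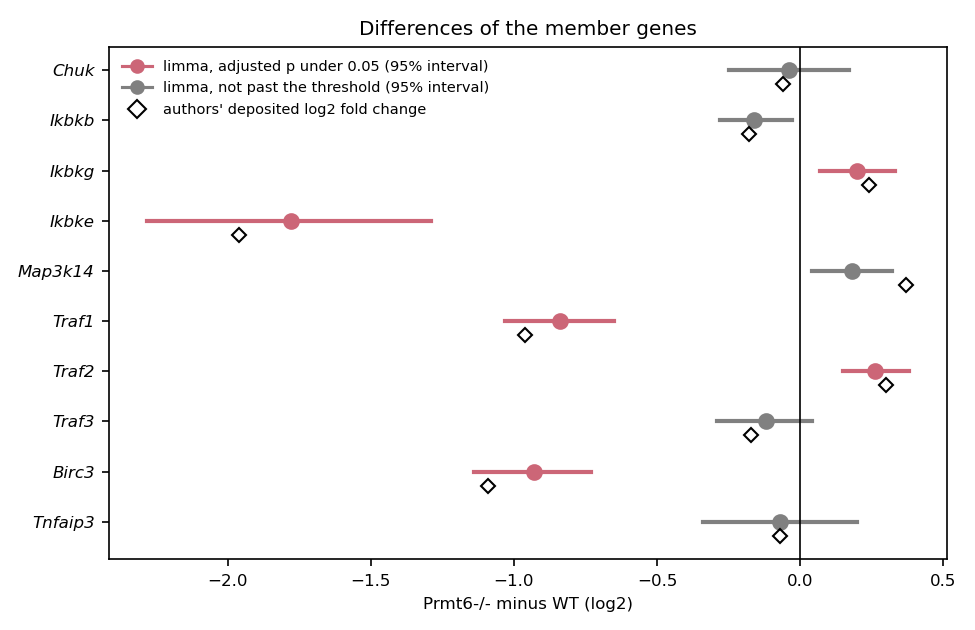
Knockout minus wild-type difference (x axis, log2) of each member gene (y axis), with the limma 95% interval as a line, red where the adjusted p was under 0.05; open diamonds are the log2 fold changes of the authors' deposited table. Ikbke (-1.78), Birc3 (-0.93) and Traf1 (-0.84) stand apart on the negative side, while the other members lie between -0.16 and 0.26.

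**Figure D3:**
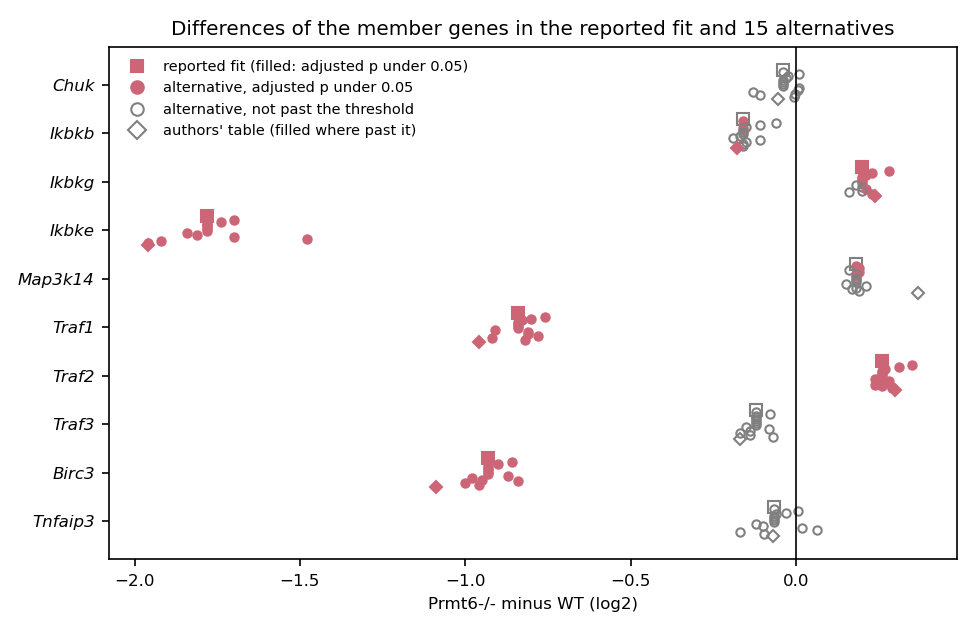
Knockout minus wild-type difference (x axis, log2) of each member gene (y axis) as reported (square), in the authors' deposited table (diamond) and in the other alternatives (circles), filled where the adjusted p was under 0.05. Ikbke, Traf1, Birc3 and Traf2 are filled in all 15 alternatives, Ikbkg, Ikbkb and Map3k14 lie on both sides of the threshold, and Chuk and Tnfaip3 scatter around 0.

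Genes around the members were counted in 10 lists of 115 genes, of which 109 were tested. In all 45 fell and 17 rose, with a median of -0.15 beside 0.01 over all genes tested, and the same background of 18.0% lower and 15.0% higher holds. The number that rose was 11 with library 1 of either genotype left out and 10 with library 2 of either left out.

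Among the other TRAFs and receptor-proximal adaptors 4 of 15 fell and 5 rose in limma, with a median of -0.02, and 4 fell and 2 rose in the authors' deposited table. Irak2, a kinase-like mediator of interleukin-1 and Toll receptor signals, fell from 11.07, 11.01 and 11.07 to 9.74, 10.08 and 10.28 (difference -1.02). Tifa, which binds TRAF6, fell (difference -0.72), as did Traf6 itself (-0.46), whereas Tradd, the adaptor of TNF receptor 1, rose by 0.29. Limma adjusted p-values of these 4 genes lay between 2.68e-04 and 0.00384. Of 13 ubiquitin ligases and TAK1 complex genes 3 fell and 2 rose. Map3k8, a MAP3 kinase also called TPL2, fell (difference -0.67), as did the caspase inhibitor Xiap (-0.36), while the TAK1 partner Tab1 rose by 0.31. Tab2, another TAK1 partner, differed by -0.22 (limma adjusted p = 0.0352), a call lost in 8 of 15 alternatives, which include leaving out wild-type library 2 or 3 or knockout library 2 or 3.

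IKK-epsilon acts with TBK1 and scaffold proteins. Of the 7 genes of that module 2 fell and 1 rose. Tank, a scaffold of TBK1 and IKK-epsilon, stood at 10.07, 10.01 and 10.29 in the WT libraries and 8.89, 8.93 and 9.14 in the knockout, a difference of -1.14 (limma adjusted p = 4.48e-05). Irf7, an interferon regulatory factor activated by these kinases, fell by 1.09 (limma adjusted p = 5.00e-04). Azi2, a further scaffold, rose by 0.18 (limma adjusted p = 0.0266), a call that ended without wild-type library 1 or 2 or knockout library 1 or 2. The partner kinase Tbk1 stood at 10.53, 10.45 and 10.56 in the WT libraries and 10.31, 10.42 and 10.40 in the knockout, and its difference of -0.13 did not pass (limma adjusted p = 0.107). Of 5 genes of the CARD-BCL10-MALT1 module, which carries antigen and lectin receptor signals to IKK, the protease Malt1 (difference -0.58) and the adaptor Bcl10 (-0.40) fell, with limma adjusted p-values of 0.00182 and 0.00453.

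Beside Tnfaip3, 14 further deubiquitinases and negative regulators were listed, of which 6 fell and 4 rose. Tnip1, which binds A20 and helps it act, fell from 12.90, 13.06 and 12.92 to 11.68, 11.99 and 11.92 (difference -1.09, limma adjusted p = 3.45e-05). Its relative Tnip3 fell too (difference -1.94), and so did Usp18, which removes ISG15 from proteins (-0.88), and Irak3, an inhibitor of Toll receptor signalling (-0.68). Limma adjusted p-values of these 3 genes lay between 2.06e-04 and 0.00103. Other genes whose products work with A20 went different ways: Tax1bp1 fell (difference -0.55, limma adjusted p = 0.0122), Rnf11 rose by 0.36 (0.0126), and Tnip2 (0.04) and Itch (-0.09) did not pass. The remaining calls of this list were Cyld, which fell (difference -0.48), and Zc3h12a (0.37), Otud7b (0.27) and Nlrc3 (0.21), which rose. Their limma adjusted p-values lay between 0.00112 and 0.0204.

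Transcripts of the NF-kB proteins fell in 4 of 5 cases for the subunits and in 4 of 6 cases for the IkB proteins. The differences were -1.41 for Relb, -1.27 for Nfkb2, -0.41 for Rel and -0.37 for Nfkb1, and among the IkB proteins -1.23 for Nfkbie, -1.05 for Bcl3 and -0.70 for Nfkbib, while Nfkbiz rose by 0.53. Limma adjusted p-values of these 8 genes lay between 1.04e-04 and 0.0124. Nfkbia fell by less (difference -0.23, limma adjusted p = 0.0459). Rela (difference -0.09, limma adjusted p = 0.212) and Nfkbid (0.09, 0.264) did not pass. Relb and Nfkb2 form the NF-kB dimer of the NIK branch. The lowest knockout values of Relb (9.21) and Nfkb2 (10.77) were also those of knockout library 1.

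Of 14 receptors that bind TRAFs 4 fell and 2 rose. Tnfrsf13b, the receptor TACI, fell (difference -0.90), as did Cd40 (-0.32), while Tnfrsf12a, the receptor of TWEAK, rose by 0.77 and Tnfrsf8, known as CD30, by 0.43. Among 9 tested ligands Ltb, a ligand of the lymphotoxin receptor that feeds the NIK branch, fell by 3.04, while Tnfsf12, the TWEAK ligand, rose by 0.81 and Tnfsf14 by 0.36. The TWEAK ligand and its receptor were thus both higher in the knockout. Limma adjusted p-values of these 7 genes lay between 7.16e-05 and 0.00517. The authors' deposited table gave log2 fold changes over 1.5 times as large for Cd40 (-0.94), Tnfrsf8 (0.91), Tnfrsf12a (1.19), Ltb (-4.88), Tnfsf12 (2.15) and Tnfsf14 (0.63), as it did for Tnip3 (-4.42), Usp18 (-1.64), Map3k8 (-1.03) and Bcl2a1b (-4.53). It also held the ligand Tnfsf13 as lower (log2 fold change -1.12, adjusted p = 0.0205), which did not pass in limma (difference -0.31, adjusted p = 0.0745). The cytokine Tnf itself stood at 10.27, 10.25 and 10.42 in the WT libraries and 9.84, 10.18 and 10.22 in the knockout, and its difference of -0.23 did not pass (limma adjusted p = 0.119). The genes of its receptors, Tnfrsf1a (difference -0.23, limma adjusted p = 0.0102) and Tnfrsf1b (-0.39, 0.0153), were the remaining receptors that fell.

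Known NF-kB target genes other than the members fell in 15 of 21 tested cases, with a median of -0.66. In limma 0 rose after adjustment and 2 were higher at an unadjusted p under 0.05, and 0 rose in the authors' deposited table. Bcl2a1b, an anti-apoptotic gene with near-identical copies that can share its reads, fell furthest among them (difference -2.87), followed by the hexose transporter Slc2a6 (-2.72), the adhesion molecule Icam1 (-2.41) and the cytokine subunit Ebi3 (-2.32). Limma adjusted p-values of these 4 genes lay between 1.24e-06 and 2.03e-05. The list was drawn up with earlier results of these data known, so its direction is no independent evidence.

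**Figure D4:**
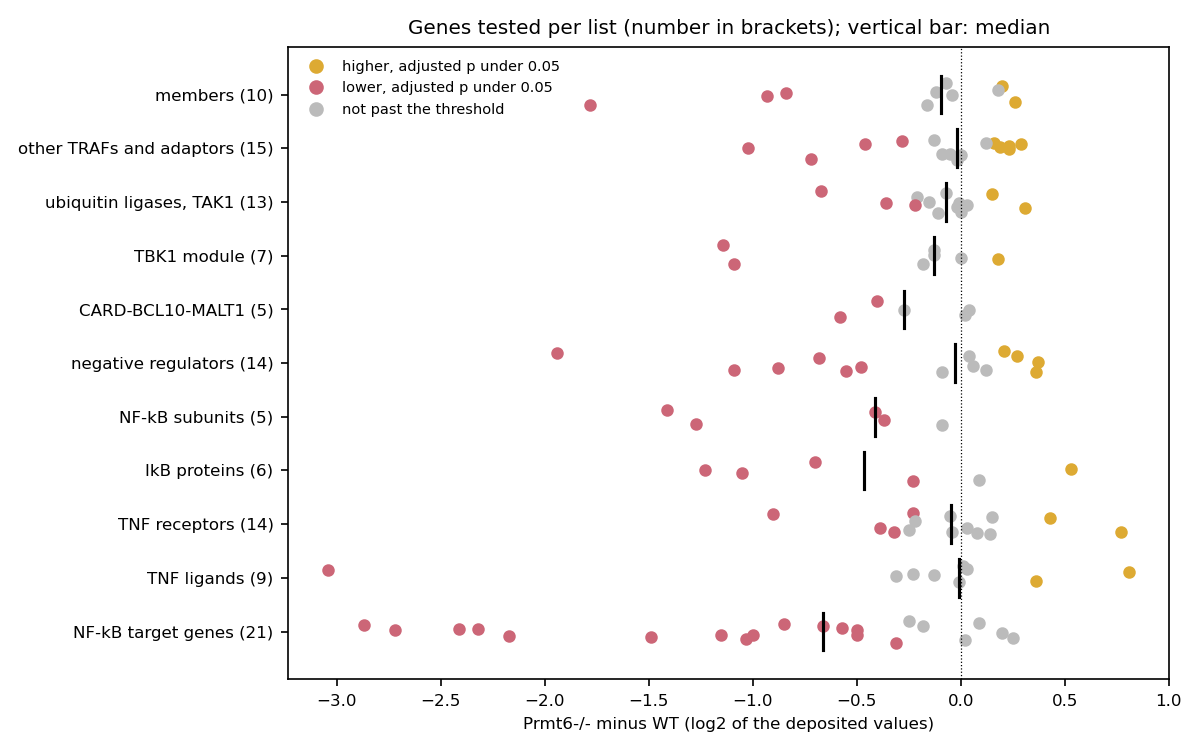
Knockout minus wild-type difference (x axis, log2) of every tested gene of the members and of the 10 lists (y axis, number tested in brackets), coloured by the limma call, with the list median as a vertical bar. The medians run from -0.66 for the NF-kB target genes to -0.01 for the TNF ligands, and the members at -0.10 include both falls and rises.

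Markers of other cell types were measured in the same libraries. Of 6 tested B-cell markers 2 fell, Ighm (difference -1.53) and Cd79b (-1.15), and the summed linear level of the B-cell list ran from 1309 to 1655 in the WT libraries and from 529 to 807 in the knockout. The B-cell genes Pax5, at 0.19 to 0.22, and Ms4a1, at 1.81 to 1.88, were near the bottom of the scale in every library. Of 8 tested monocyte and macrophage markers 4 fell and 2 rose. Csf1r (difference -1.83), Cd68 (-0.94), Irf8 (-0.70) and Adgre1 (-0.33) fell, while Ccr2 rose by 1.07 and Cd14 by 0.44. The summed level of that list overlapped, at 33112 to 36466 in the WT libraries and 33228 to 34237 in the knockout. Most of that sum was Ly6c2, which differed by 0.02 and did not pass (limma adjusted p = 0.801), so its overlap says little of the other markers. Of 10 neutrophil and granule genes 3 rose, Elane (difference 1.45), Cxcr2 (1.18) and Camp (0.97), and 1 fell, Mmp8 (-0.53). Their sum ran from 103348 to 126818 in the WT libraries and from 280395 to 288841 in the knockout, mostly through Elane. The neutrophil marker Ly6g stayed at 1.90 to 1.99 in every library, and S100a8 (-0.14) and S100a9 (-0.41) did not pass. Dendritic-cell markers fell in 3 of 7 tested cases, Ccr7 (difference -0.41), Xcr1 (-0.35) and Zbtb46 (-0.25), and 0 rose. The sums of that list overlapped, at 1567 to 1851 in the WT libraries and 1565 to 1727 in the knockout. Most of each sum was Flt3 (difference -0.07, limma adjusted p = 0.585), so their overlap says little of the other markers. Summed levels of the T-cell, NK-cell, erythroid and megakaryocyte lists stayed at or below 127 in every library, and the T-cell gene Trac and the NK-cell gene Gzma were listed at 0. Of 6 tested T-cell markers Cd3d rose (difference 0.44) and Lck fell (-0.28). Klrk1 rose by 0.22 among 5 tested NK-cell markers and Klf1 by 0.22 among 7 erythroid ones, and no megakaryocyte marker passed. The authors' deposited table gave log2 fold changes of 2.01 for Cd3d, -0.98 for Lck, 1.85 for Klrk1 and 1.76 for Klf1. The part of these shifts in the differences of Ikbke, Traf1 and Birc3 was not tested.

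The members lie on 9 chromosomes of GRCm38 and are all annotated as protein-coding by GENCODE. Ikbke lies at 131254343 to 131279606 on chromosome 1, Traf1 at 34941750 to 34961772 on chromosome 2 and Birc3 at 7848699 to 7873186 on chromosome 9. Traf2 lies at 25517982 to 25546940 on chromosome 2, Ikbkg at 74393290 to 74453854 on chromosome X, Chuk at 44073335 to 44107480 on chromosome 19 and Ikbkb at 22659212 to 22706589 on chromosome 8. Map3k14 lies at 103219762 to 103267472 on chromosome 11, Traf3 at 111166370 to 111267153 on chromosome 12 and Tnfaip3 at 19000910 to 19015657 on chromosome 10. None of the members is on chromosome 3, where Prmt6 lies at 110246109 to 110250998. Besides Ikbkg, exon bases shared with another annotated gene made up 0.721% and 1.76% of Ikbke (with 2 antisense genes) and 2.06% of Map3k14, and the other members shared none.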

How the data were processed

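The 3 WT and 3 Prmt6-/- RNA libraries were compared. Per the submitters' processing notes the authors used Trim Galore, kallisto and HOMER on GRCm38, and HOMER's differential expression command made the table from read counts, per the file headers. The authors deposited log2 expression values, normalized between samples by a transformation the file does not name, which pulls low genes together, and also, for each gene, a log2 fold change and raw and adjusted p-values of an unnamed test. For the gene models used in counting, the version was not given in the sources used here. Of the rows, 1 (0.00333%) names no gene and was left out. Of 30037 named genes 7932 were at 0 in every library.

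The deposited values were tested as they stand with limma 3.58.1 (R 4.3.3; eBayes with trend, Benjamini-Hochberg adjustment, threshold 0.05) for genes that reached 1 in 3 or more libraries, after a check on simulated data. Linear sums of markers use 2 to the power of the value, with 0 left at 0. The members and lists were chosen with earlier results of these data known. The text names all members, Prmt6 and up to 4 called genes with the smallest p of each list. Birc2, Tbk1, Tnf, Tnfsf13, Tnfrsf1a, Tnfrsf1b, G6pdx, Tax1bp1, Rnf11, Tnip2, Itch, Cyld, Zc3h12a, Otud7b, Nlrc3, Rela, Nfkbia, Nfkbid, C130013H08Rik and the single marker genes were chosen after their values were seen. Adgre1 was matched by its older symbol, and 1 marker gene is not reported here. Sequences are RefSeq's, positions GENCODE M21's. The alternatives tried were 4 other scalings or variance models, 2 filters, a pseudocount, the replicate number as a block, the authors' p-values and leaving out each library.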

Additional observations from a re-analysis of the deposited data

How the results depend on the processing

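The falls of Ikbke, Traf1 and Birc3 and the rise of Traf2 kept their direction and stayed past the threshold in all 15 alternatives, with differences of -1.96 to -1.48, -0.96 to -0.76, -1.09 to -0.84 and 0.24 to 0.35. The number of members that fell was 3 or 4 in every alternative, and the number that rose ranged from 1 to 3. It was 3 without the trend, after quantile normalization, after median centring and with the stricter filter. When 1 library was left out the number that rose was 1 or 2, and it was 1 where Ikbkg lost its call. Across the other pathway genes the number that rose ranged from 10 to 19 in all alternatives, against 17 in the reported fit. It was 10 to 14 with 1 library left out (11 without library 1 of either genotype, 10 without library 2 of either). With all libraries it was 13 under no low-value filter, 14 in the authors' deposited table and 19 after quantile normalization. The number that fell ranged from 43 to 47 in all alternatives. Each fit with 1 library left out has fewer libraries, and the part of that in these counts was not tested. Chuk turned sign after quantile normalization (0.00986) and when wild-type library 1 (0.00941) or 2 (0.00503) was left out, its difference running from -0.13 to 0.00941 as single libraries were left out. Tnfaip3 turned sign after quantile normalization (0.00693) and when wild-type library 3 (0.0175) or knockout library 1 (0.0627) was left out, with a range of -0.17 to 0.0627. The cause was not tested, and neither gene passed anywhere. Ikbkb passed in 3 alternatives, without the trend (adjusted p = 0.0412), with the stricter filter (0.0345) and in the authors' deposited table (0.0426). With the replicate number as a block 2 members rose and 3 fell, and 17 other pathway genes rose and 45 fell. Same-numbered libraries deviated together only weakly (r across genes of 0.0948, 0.0727 and 0.172), although each library correlated best with its own number, so the numbers were not taken as pairs. Of the 36 pathway genes named by rule, 2 (Tab2 and Azi2) lost a call in any alternative. Depth is unknown, and the deposited scale limits what can be said of genes at low level.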
